A study of Mus musculus with 13 samples.

Results

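This account describes what 48 h with 1,25-dihydroxyvitamin D3 (1,25D, the hormonal form of vitamin D) did to the messenger RNAs of cultured mouse prostate progenitor/stem cells. It compares 4 arrays of cells kept in 100 nM 1,25D with 3 arrays of cells kept in its solvent, ethanol at 0.1%, out of 13 arrays in the whole series. The other 6 arrays are 3 vehicle and 3 1,25D samples taken at 6 h, and they are used to place the late response against the early one. All cells came from 10 wk old wild-type B1/6; 127/SVEV mice and were at passage 22, so every group shares that genotype and a long period of culture. Dishes were treated before they were confluent, and those of the 48 h groups were dosed daily. Each of 18193 named genes was read from 1 probe set, the one with the highest mean over the 13 arrays.

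1,25D enters the cell and binds the vitamin D receptor, a transcription factor that pairs with the retinoid X receptor and acts at response elements in target genes. One of its best known targets is Cyp24a1, the mitochondrial hydroxylase that starts the breakdown of the hormone. After many hours a response of this kind holds genes that the receptor acts on directly and genes that change later, through other regulators or through altered growth and differentiation. In stratified epithelia vitamin D is known for its part in keratinocyte differentiation, and in prostate epithelial cultures for slowing growth.

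The labelled cell type was checked against marker genes. Of 13 markers of basal epithelial cells, the layer that carries keratins 5 and 14 in the prostate, 10 had a mean log2 signal above 8 in both groups at 48 h, and 6 of 10 luminal markers did. No mean of a marker of fibroblasts (13 measured), smooth muscle (8), immune cells (12), endothelium (10) or neuroendocrine and nerve cells (8) reached that level in either group. The summed linear signal of the basal markers was 30300 to 33500 over the vehicle arrays and 31100 to 34200 over the 1,25D arrays, so the groups overlapped. That of the luminal markers was 45200 to 45500 against 37100 to 39400, without overlap. Of these 10 markers Krt8 and Krt18, the brightest and so the heaviest in the sum, fell, and Acpp and Krt19 rose, with a median log2 change of -0.142. The immune markers summed to 620 to 641 in vehicle and 706 to 872 with 1,25D, and Cd68, which encodes a lysosomal protein that is abundant in macrophages, was the 1 member called: its log2 signal was 6.69 to 6.70 in vehicle and 7.66 to 8.22 with 1,25D. The part of this in the results below was not tested. In RNA from whole dishes, fewer cells of a type and less RNA per cell cannot be told apart.

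Array 1,25D 48 h replicate 4 stood apart. Its log2 values had an interquartile range of 2.95, against 3.28 to 3.46 for the other 6 arrays at 48 h, and a second principal component with 23% of the variance set it and vehicle 6 h replicate 1 away from the rest. It was the treated array nearest to vehicle for 131 of the 261 genes that rose, and the farthest from vehicle for 86 of the 173 that fell. The 434 changes at 48 h became 431 without it, with 282 rises and 149 falls in place of 261 and 173. Without both arrays that stand apart they became 602 (396 rises and 206 falls). Its values are given beside the results that rest on it.

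At 48 h, 434 genes differed between 1,25D and vehicle at an adjusted p under 0.05 (2.39% of the genes tested), 261 of them higher (1.43%) and 173 lower (0.951%) with the hormone. A call here is a moderated test in limma with Benjamini-Hochberg adjustment over all 45037 probe sets, and rose and fell are used for calls only. At least 2-fold were 121 rises (0.665%) and 63 falls (0.346%), at least 4-fold 34 and 9, and at least 8-fold 11 and 2. In all 434 genes the 4 treated arrays lay wholly above or below the 3 vehicle arrays, as they did in 12.6% of all genes (5.47% upwards and 7.11% downwards). Calls that held whichever of the 7 arrays was left out numbered 218 (1.2%), 142 of them rises (0.781%) and 76 falls (0.418%). The count moved most when a vehicle array was left out: 271, 260 and 275 genes were called without vehicle 48 h replicate 1, 2 or 3. Nothing in the sources used here tells if replicate arrays stand for separate cultures; p-values therefore measure the spread between these arrays, which may be technical.

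In vehicle, genes that rose were dimmer than those that fell, and with 1,25D the order was the reverse. The direction of a call itself favours such an order. Over all 13 arrays the median signal percentile was 76.8 for the rises and 81.1 for the falls. The median log2 signal of the rises was 7.65 in vehicle and 9.01 with 1,25D, and that of the falls 9.34 and 8.10. Among the 261 rises, 46 had a vehicle mean below the median of all probe sets, and 6 were still below it with 1,25D. Among the falls, 5 were below it in vehicle and 25 with the hormone. At signals that low the deposited values do not separate a transcript from background, so such folds are approximate.

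**Figure D1:**
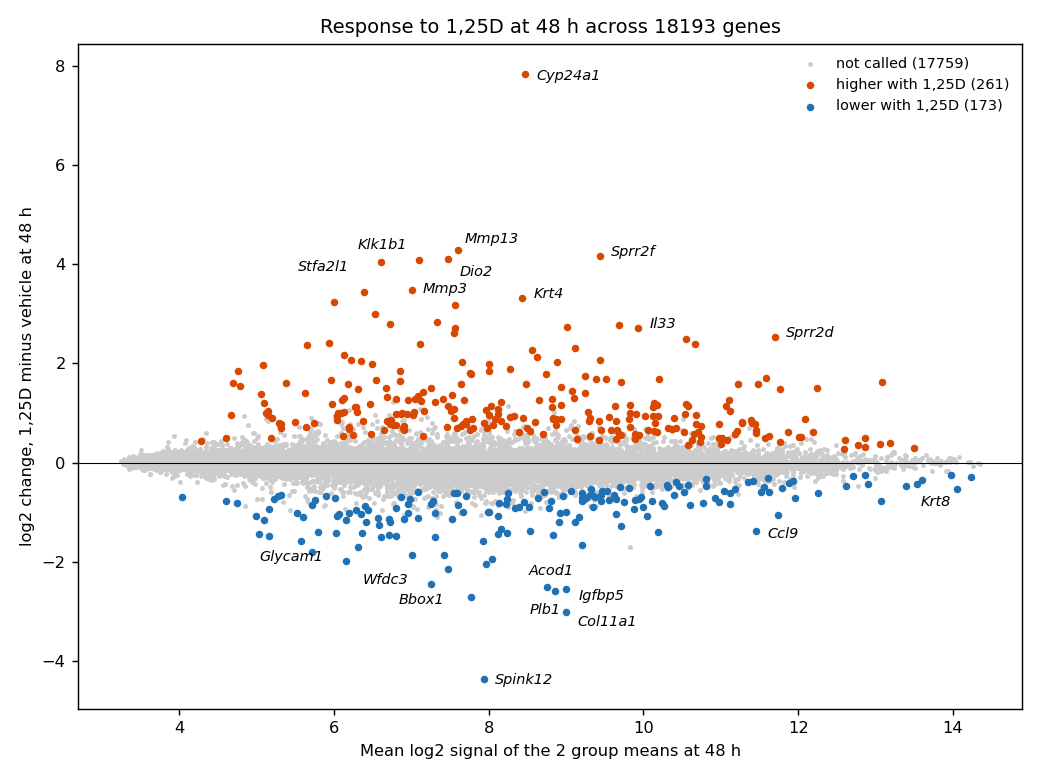
log2 change at 48 h (1,25D minus vehicle, vertical axis) against the mean of the 2 group means on the log2 signal scale (horizontal axis), 1 point per gene. The 261 rises are orange and the 173 falls blue; Cyp24a1 lies highest at 7.83 and Spink12 lowest at -4.35.

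Cyp24a1 gave the largest change. Its log2 signal was 4.65, 4.92 and 4.10 on the vehicle arrays and 12.18, 12.56, 12.39 and 12.43 on the 1,25D arrays, a 228-fold difference (log2 change 7.83, SE 0.18, limma adjusted p = 4e-11). Every treated array read about the same, and at 6 h the log2 change had already been 8.50. Vdr, the receptor itself, read 9.77 to 9.85 in vehicle and 9.56 to 9.82 with 1,25D, with overlapping arrays and a log2 change of -0.11 (SE 0.13, adjusted p = 1.0). In the list of 36 genes of vitamin D transport, metabolism, reception and known targets, 4 rose and 1 fell. Besides Cyp24a1 the rises were Abcc4, an exporter of organic anions and prostaglandins (log2 change 2.04), Cldn2, a claudin that lets small cations through the tight junction (1.66), and Ptgs2, the inducible cyclooxygenase (1.05). The fall was Fbp1, a gluconeogenic phosphatase (-1.01). Over all the lists described here, 162 of 1572 measured genes were called, or 10.3%, beside 2.39% of all genes. The lists were chosen with earlier results of these data known, so that share supports nothing. Every list count below is to be read beside the shares over all genes, 1.43% for rises and 0.951% for falls. A list with few calls says little about the list as a whole.

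3 secreted matrix proteases rose. Mmp13, collagenase-3, read 5.27, 5.17 and 5.95 in vehicle and 9.88, 9.73, 9.61 and 9.74 with 1,25D, a 19.4-fold difference (log2 change 4.28, SE 0.19, adjusted p = 2.09e-08). Mmp3, stromelysin-1, which cleaves matrix proteins and activates other proteases of the family, read 5.19, 5.23 and 5.37 against 8.84, 9.0, 8.61 and 8.58 (log2 change 3.49, SE 0.16, adjusted p = 2.27e-08). Mmp10, stromelysin-2, read 5.75 to 6.13 against 7.31 to 7.53 (log2 change 1.5, SE 0.14, adjusted p = 2.38e-05). In each of the 3 every treated array was above every vehicle array. They were the only rises among 33 metalloproteinase and Adamts genes, whose median log2 change was 0.036 beside -0.002 for all genes. 2 members fell: Adamts1, a protease that trims proteoglycans, from 10.48 to 10.72 in vehicle to 9.34 to 9.65 (log2 change -1.08, adjusted p = 0.00101), and Adamts4, an aggrecanase (-1.02, adjusted p = 0.00423).

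Mmp13, Mmp3 and Mmp10 lie on chromosome 9, and each carries the letters of an AP-1 element, TGANTCA, in the stretch just before its annotated start. AP-1 is the family of Fos and Jun dimers. The windows are shown because these 3 genes are the metalloproteinase rises. The promoters of Klk1b1, Klk1b11 and Klk8, serine proteases described below that also rose, hold no match. They come from RefSeq's promoters on GRCm38.p6, are written 5′ to 3′ along the gene's strand, and have the matched letters in capitals:
Mmp13 (chr9:7272439-7272513, plus strand): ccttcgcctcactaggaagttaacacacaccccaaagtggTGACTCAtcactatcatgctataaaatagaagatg
Mmp3 (chr9:7445736-7445821, plus strand): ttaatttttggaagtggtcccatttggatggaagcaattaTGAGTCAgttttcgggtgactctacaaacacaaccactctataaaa
Mmp10 (chr9:7502239-7502325, plus strand): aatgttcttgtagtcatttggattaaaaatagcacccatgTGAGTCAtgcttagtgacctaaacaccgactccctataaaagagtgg
The first matched base lies 35, 46 and 63 bases before the start in Mmp13, Mmp3 and Mmp10. All 3 windows also hold a TATA-like stretch, tataaaa, between the match and the start. A match says only that these letters are there.

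Genes of blood clotting and plasmin control were among the rises too. F13a1, the A chain of the factor XIII transglutaminase that crosslinks fibrin, read 4.82, 4.42 and 4.76 in vehicle and 8.33, 8.39, 7.88 and 7.81 with 1,25D, a 10.8-fold difference (log2 change 3.44, SE 0.18, adjusted p = 1.11e-07). Procr, the endothelial protein C receptor, read 8.33 to 8.44 against 9.99 to 10.19 (log2 change 1.74, SE 0.14, adjusted p = 8.52e-06). Serpinb2, plasminogen activator inhibitor-2, read 5.22, 4.93 and 5.85 against 7.51, 7.49, 7.51 and 7.01 (log2 change 2.05, SE 0.25, adjusted p = 0.000491). In Serpinb2 replicate 4 was the lowest treated array, yet it lay above all vehicle arrays. Of 24 genes in this list 4 rose and 1 fell, and 3 of the 5 calls held whichever array was left out.

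Genes for the cornified envelope, the crosslinked protein shell that surface cells of stratified epithelia build under their membrane, were a large group among the late rises. Of 48 measured genes of this kind 13 rose, beside 1.43% of all genes, and 0 fell, 43 had a log2 change above 0, and the median was 0.314. 9 of the 13 calls held whichever array was left out. The count of rises ran from 9 to 14 when single arrays were left out and was 17 without the 2 arrays that stand apart. By array, the median of the 48 genes relative to the vehicle mean was -0.09, -0.01 and 0.11 in vehicle and 0.47, 0.30, 0.53 and 0.28 with 1,25D. At 6 h the same genes had a median log2 change of 0.005 and 1 rise.

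Small proline-rich proteins, envelope precursors encoded side by side on chromosome 3, led this group. Sprr2f read 7.16, 7.16 and 7.74 in vehicle and 11.63, 11.56, 11.62 and 11.28 with 1,25D (log2 change 4.17, SE 0.25, adjusted p = 3.59e-07). Sprr2d was bright already in vehicle, at 10.23, 10.27 and 10.78, and reached 13.03, 12.91, 13.04 and 12.90 (log2 change 2.54, SE 0.16, adjusted p = 8.22e-07). Sprr2i read 5.94 to 6.59 against 8.49 to 9.35 (log2 change 2.72, SE 0.20, adjusted p = 4.05e-06). The treated arrays of all 3 were above every vehicle array, and vehicle replicate 3 was the highest vehicle array in each. Called genes of this cluster that follow each other in RefSeq's gene order form a run of 9: Sprr2d, Sprr2f, Sprr2h, Sprr2i, Sprr2j-ps, Sprr2k, Sprr1b, Sprr3 and Sprr1a. The Sprr2 genes are close copies, and a probe set for one may bind transcripts of another, so their values are not independent of each other.

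The promoter windows of Sprr2f, Sprr2d and Sprr2i are shown because they hold the AP-1 letters at nearly the same distance, 197, 193 and 193 bases before the start, in related surroundings (capitals mark the match):
Sprr2f (chr3:92364950-92365036, plus strand): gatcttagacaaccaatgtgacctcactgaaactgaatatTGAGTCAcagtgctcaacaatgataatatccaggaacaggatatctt
Sprr2d (chr3:92338907-92338993, plus strand): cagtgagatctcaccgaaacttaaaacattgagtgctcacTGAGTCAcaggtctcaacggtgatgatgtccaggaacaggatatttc
Sprr2i (chr3:92407758-92407844, plus strand): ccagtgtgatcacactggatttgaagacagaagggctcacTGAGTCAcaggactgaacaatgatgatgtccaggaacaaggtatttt
All 3 matches read TGAGTCA and are followed by the base c, and a stretch reading tccaggaaca lies downstream in each window. These are gene copies with shared sequence, so the 3 matches are not independent.

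Corneodesmosin, Cdsn, a glue protein of the junctions between cornified cells, read 7.37, 7.43 and 8.14 in vehicle and 10.74, 10.34, 10.62 and 9.83 with 1,25D (log2 change 2.73, SE 0.23, adjusted p = 1.03e-05). Dsg1b, a desmosomal cadherin of upper epidermal layers, rose from between 3.76 and 4.01 in vehicle to 5.88, 5.85, 5.74 and 4.53 (log2 change 1.60, SE 0.25, adjusted p = 0.00313), with replicate 4 well under the other treated arrays. Ivl and Lor, which encode involucrin and loricrin, the classical envelope proteins, were not called: Ivl read 5.41 to 5.60 against 5.63 to 5.92 and Lor 6.85 to 7.92 against 6.92 to 8.42. These 2 were picked out after their values were seen, because they define the pathway, and a p that misses the threshold does not show that they were unaltered.

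Keratins changed in both directions. Krt4, a keratin of the suprabasal layers of moist stratified epithelia, read 6.80, 6.58 and 6.96 in vehicle and 10.15, 9.84, 10.52 and 9.87 with 1,25D, a 9.95-fold difference (log2 change 3.32, SE 0.18, adjusted p = 1.33e-07). Krt16 and Krt6b, keratins of activated and wounded epithelium, rose from between 11.22 and 11.68 in vehicle to between 12.87 and 13.14 with 1,25D (log2 change 1.51, adjusted p = 1.12e-05) and from between 12.12 and 12.46 in vehicle to between 13.84 and 14.02 with 1,25D (log2 change 1.63, adjusted p = 1.06e-06). In contrast Krt8 and Krt18, the keratin pair of simple and luminal epithelium, fell by small amounts, with a narrow spread between arrays. Krt8 read 13.78, 13.69 and 13.81 against 13.35, 13.30, 13.33 and 13.31 (log2 change -0.43, SE 0.05, adjusted p = 0.000158), and Krt18 read 13.74 to 13.81 against 13.38 to 13.46 (-0.34, SE 0.04, adjusted p = 0.000503). Such signals lie near the top of the scale, which ends at 14.45 on these arrays. Krt19, also a luminal keratin, went the other way: it rose by 0.58 (adjusted p = 0.0324), a call lost without 6 of the 7 arrays at 48 h, among them each vehicle array. Of 28 keratins 7 rose and 2 fell, beside 1.43% and 0.951% of all genes, 7 of the 9 held whichever array was left out, and the basal keratins Krt5 and Krt14 were not called (log2 changes -0.08 and 0.07).

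**Figure D2:**
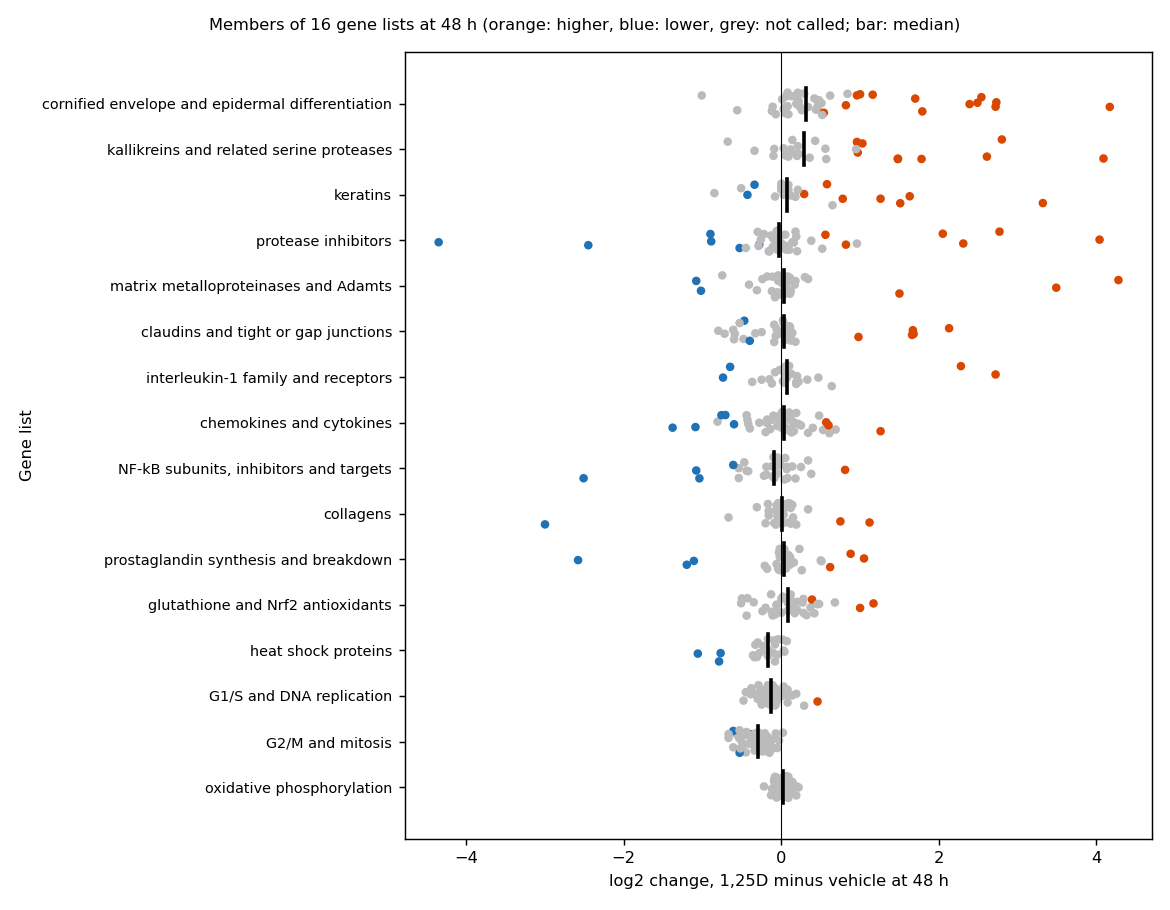
log2 change at 48 h (1,25D minus vehicle, horizontal axis) of the measured members of 16 gene lists, 1 point per gene, spread vertically for legibility, orange for rises, blue for falls and grey for genes not called; black bars are medians. The cornified envelope and kallikrein and serine protease lists have medians of 0.314 and 0.291 and the G2/M list one of -0.294, while oxidative phosphorylation genes lie close to 0.

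Kallikreins are secreted serine proteases that include enzymes of the shedding skin surface and of glandular secretions. In the list of kallikreins and related serine proteases 9 of 28 measured genes rose and 0 fell, with a median log2 change of 0.291. Of its 19 Klk genes 8 rose, and the other rise was Tmprss11e. Klk1b1, of the glandular group, read 4.86, 5.16 and 5.14 in vehicle and 9.36, 9.28, 9.08 and 8.85 with 1,25D, a 17.0-fold difference (log2 change 4.09, SE 0.24, adjusted p = 3e-07). Klk1b11 read 6.16, 6.34 and 6.25 against 9.09, 8.80, 8.99 and 8.57 (log2 change 2.61, SE 0.17, adjusted p = 7.02e-07), and Egfbp2, a glandular kallikrein outside the list, named for binding epidermal growth factor, 5.82 to 6.19 against 9.03 to 9.27 (3.18, SE 0.13, adjusted p = 1.36e-08). In all 3 the treated arrays were far above vehicle, with replicate 4 lowest in Klk1b1 and Klk1b11. Klk8, neuropsin, a kallikrein of epidermis, started at 10.89 to 11.14 and reached 12.40 to 12.63 (log2 change 1.48, SE 0.12, adjusted p = 1.03e-05), and had risen at 6 h by 0.72. Tmprss11e, a membrane-bound serine protease of squamous epithelia, went from between 4.99 and 5.66 in vehicle to between 7.68 and 8.57 with 1,25D (log2 change 2.80, SE 0.22, adjusted p = 6.51e-06). The Klk1b genes are near copies, and Egfbp2 was read by a probe set whose suffix marks possible binding of other transcripts, so which member was measured is uncertain. 7 of the 9 calls held whichever array was left out, and the 2 that did not were the dim Klk1b27 and Klk1b16.

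Among 44 protease inhibitors 6 rose and 6 fell. Stefins, which block lysosomal cysteine proteases and are also parts of the cornified envelope, rose as a neighbouring trio on chromosome 16. Stfa2l1 read 4.61, 4.55 and 4.61 in vehicle and 8.71, 8.85, 8.63 and 8.34 with 1,25D, a 16.5-fold difference (log2 change 4.04, SE 0.13, adjusted p = 1.12e-09). Csta1 read 8.25 to 8.32 against 10.80 to 11.30 (2.77, SE 0.17, adjusted p = 5.29e-07), and Stfa3 7.81 to 8.05 against 10.09 to 10.37 (2.31, SE 0.14, adjusted p = 3.63e-07). Csta1 had risen by 1.46 at 6 h, while Stfa2l1 had a log2 change of 0.21 then.

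The falls were Spink12, Spink5, Wfdc3, Wfdc12, Wfdc18 and Slpi, of the Kazal and WAP families, while Spink1, Spink2, Spink4, Spink8, Wfdc1, Wfdc2 and Wfdc15b were not called. 9 of the list's 12 calls held whichever array was left out. That of Spink5 was lost without any of the 3 vehicle arrays, that of Wfdc12 without 6 of the 7 arrays and that of Serpinb9b, a rise, without 5. Spink12, a Kazal-type serine protease inhibitor, had the largest fall of all genes: it read 9.90, 10.04 and 10.38 in vehicle and 5.92, 5.07, 5.69 and 6.36 with 1,25D, a 20.4-fold difference (log2 change -4.35, SE 0.24, adjusted p = 1.79e-07). At 6 h it had read 7.07 to 7.35 in vehicle, below the 48 h vehicle arrays and above the treated ones. Wfdc3, with WAP domains, read 8.27 to 8.76 against 5.69 to 6.38 (log2 change -2.45, SE 0.18, adjusted p = 2.69e-06). Slpi, a secreted inhibitor of neutrophil elastase and among the brightest genes on these arrays, read 14.33 to 14.40 against 14.06 to 14.15 (-0.28, SE 0.04, adjusted p = 0.000676). Wfdc17 (-1.94, adjusted p = 2.31e-06) and Wfdc21 (-1.48, adjusted p = 0.00108), which are outside the list and flank Wfdc18 in the gene order of chromosome 11, fell as well.

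**Figure D3:**
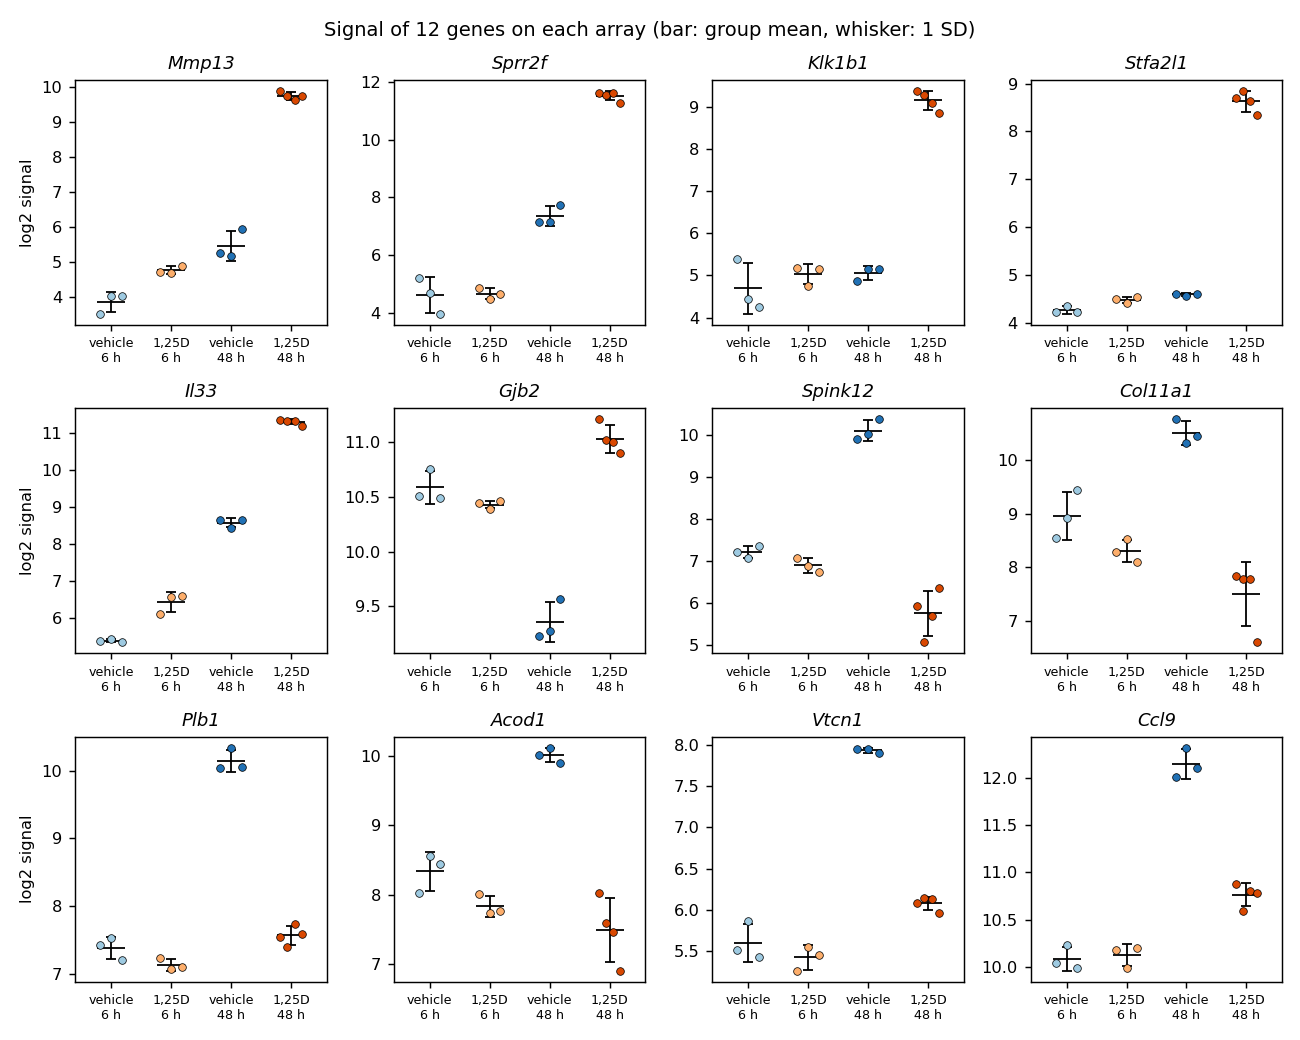
log2 signal (vertical axis, a separate range for each panel) of 12 genes on each of the 13 arrays, by group; points are arrays, black bars group means and whiskers 1 SD. The first 6 genes rise and the last 6 fall at 48 h, and in all 12 the 4 treated arrays at 48 h lie apart from the 3 vehicle arrays.

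Among signalling molecules, the interleukin-1 family held a pair of rises with a narrow spread. Il33, a nuclear cytokine that epithelial cells release on damage, read 8.65, 8.44 and 8.64 in vehicle and 11.34, 11.32, 11.31 and 11.19 with 1,25D, a 6.57-fold difference (log2 change 2.72, SE 0.13, adjusted p = 4.71e-08). Il1a, the cell-bound form of interleukin-1, read 7.30, 7.52 and 7.43 against 9.65, 9.65, 9.79 and 9.71, a 4.86-fold difference (log2 change 2.28, SE 0.11, adjusted p = 5.7e-08). In both genes the 4 treated arrays lay close together and far above vehicle. Il1a had been 6.85-fold higher at 6 h, and its difference between the times was not called (-0.49, adjusted p = 0.518), whereas the Il33 response was larger at 48 h by 1.68 (adjusted p = 0.00078). Of 25 genes of the family and its receptors 2 rose and 2 fell, and both falls, of the antagonist Il1rn and the adaptor Myd88, were lost without vehicle 48 h replicate 2 or 3, among others.

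Among 55 chemokines and other cytokines 3 rose and 5 fell, beside 1.43% and 0.951% of all genes, and 4 of the 8 calls held whichever array was left out. Ccl9, a chemokine for myeloid cells, fell from 12.01, 12.32 and 12.11 to 10.88, 10.59, 10.80 and 10.78 (log2 change -1.38, SE 0.10, adjusted p = 3.49e-06). Ccl20, which draws cells with the receptor Ccr6, fell from between 9.48 and 9.83 in vehicle to between 8.43 and 8.76 with 1,25D (-1.09, SE 0.17, adjusted p = 0.00412). Il24, of the interleukin-10 family, rose from between 6.90 and 7.14 in vehicle to between 8.23 and 8.42 with 1,25D (1.26, SE 0.18, adjusted p = 0.00156). Csf3, granulocyte colony-stimulating factor, rose from between 10.87 and 11.32 in vehicle to between 11.70 and 11.86 with 1,25D (0.60, SE 0.11, adjusted p = 0.0101).

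In the list of NF-kB subunits, inhibitors and target genes 1 of 31 rose and 4 fell, with a median of -0.092. Acod1, the mitochondrial enzyme that makes itaconate in inflamed cells, read 10.01, 10.11 and 9.90 in vehicle and 8.03, 7.59, 7.46 and 6.91 with 1,25D, a 5.70-fold difference (log2 change -2.51, SE 0.21, adjusted p = 1.25e-05). Icam1, an adhesion molecule for leukocytes, read 6.47 to 6.69 against 5.24 to 5.69 (-1.08, SE 0.14, adjusted p = 0.000553). The rise was Nfkbiz, a nuclear IkB protein, from between 10.95 and 11.06 in vehicle to between 11.68 and 11.98 with 1,25D (0.81, SE 0.11, adjusted p = 0.0016). Among antimicrobial genes S100a8, a subunit of calprotectin, rose from between 11.56 and 11.76 in vehicle to between 12.48 and 12.56 with 1,25D (0.88, SE 0.11, adjusted p = 0.000562). Vtcn1, a B7-family brake on T cells that is in none of the lists, fell from between 7.90 and 7.96 in vehicle to between 5.96 and 6.14 with 1,25D (-1.86, SE 0.13, adjusted p = 2.63e-06).

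In prostaglandin metabolism 3 of 30 genes rose and 3 fell. Ptgs2, the inducible cyclooxygenase, read 10.89, 10.41 and 10.50 in vehicle and 11.49, 12.14, 11.53 and 11.43 with 1,25D (log2 change 1.05, SE 0.17, adjusted p = 0.0052). Its neighbour in the gene order Pla2g4a, the phospholipase that frees arachidonic acid, rose by 0.88, a call lost without vehicle 48 h replicate 2 or 3. The uptake carrier Slco2a1 rose by 0.62 (adjusted p = 0.00402). The receptor Ptger4 fell from between 9.36 and 9.75 in vehicle to between 7.96 and 8.66 with 1,25D (-1.20, SE 0.18, adjusted p = 0.00255), as it had at 6 h (-1.04). Plb1, a phospholipase of the cell surface, read 10.04, 10.34 and 10.06 against 7.54, 7.40, 7.74 and 7.59, a 5.97-fold difference (log2 change -2.58, SE 0.13, adjusted p = 9.32e-08).

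Among genes of thyroid hormone and retinoid metabolism the leading change was in Dio2. Dio2, the deiodinase that makes active thyroid hormone, read 5.46, 5.28 and 5.55 in vehicle and 9.58, 9.73, 9.28 and 9.52 with 1,25D, a 17.1-fold difference (log2 change 4.10, SE 0.16, adjusted p = 8.88e-09). Crabp2, which carries retinoic acid to its receptors, rose from between 9.36 and 9.82 in vehicle to between 10.51 and 10.80 with 1,25D (1.13, SE 0.13, adjusted p = 0.000209). Aldh1a7, close kin of the retinal dehydrogenases and dim here, fell from between 4.81 and 5.22 in vehicle to between 4.11 and 4.43 with 1,25D (-0.78, SE 0.13, adjusted p = 0.00591). Of 31 genes in this list 4 rose and 2 fell.

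Cell junction genes rose in 5 of 35 and fell in 2. Gjb2, connexin 26, read 9.23, 9.27 and 9.57 in vehicle and 10.90 to 11.21 with 1,25D (log2 change 1.68, SE 0.11, adjusted p = 8.22e-07), and its chromosome 14 neighbour Gjb6, connexin 30, read 5.04 to 5.22 against 6.99, 7.24, 6.91 and 6.03 (1.67, SE 0.22, adjusted p = 0.00105). Both build gap junctions in stratified epithelia, and Gjb6 was lowest on replicate 4. Jam2, a junctional adhesion molecule, read 7.50 to 7.61 against 9.57 to 9.77 (2.13, SE 0.12, adjusted p = 2.75e-07). Cldn2 read 5.59 to 5.81 against 7.11 to 7.72 (1.66, SE 0.17, adjusted p = 9.3e-05). In Gjb2 the vehicle arrays at 48 h were also lower than those at 6 h, which read 10.49 to 10.76.

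In the extracellular matrix the largest change among the lists was a fall. Col11a1, a chain of the cartilage-type fibrillar collagen XI, read 10.75, 10.31 and 10.44 in vehicle and 7.84, 7.78, 7.78 and 6.61 with 1,25D, an 8.0-fold difference (log2 change -3.0, SE 0.28, adjusted p = 3.65e-05). Replicate 4 was far under the other 3 treated arrays, which were themselves below all vehicle arrays. Of 36 collagen genes Col11a1 was the 1 fall, and the 2 rises, Col8a1 and Col16a1, were lost without vehicle 48 h replicate 2. Among 53 other matrix genes 4 rose and 1 fell, beside 1.43% and 0.951% of all genes. Prelp, a leucine-rich proteoglycan, rose from between 8.34 and 8.50 in vehicle to between 10.31 and 10.73 with 1,25D (2.07, SE 0.17, adjusted p = 8.1e-06), having risen by 2.84 at 6 h, and Efemp1, fibulin-3, rose from between 10.43 and 10.61 in vehicle to between 11.50 and 11.76 with 1,25D (1.14, SE 0.08, adjusted p = 3.63e-06). Gpc3, a glypican that binds growth factors, fell from between 7.85 and 8.31 in vehicle to between 6.70 and 7.29 with 1,25D (-1.14, SE 0.17, adjusted p = 0.00281). Ntn1, netrin-1, rose from between 9.30 and 9.93 in vehicle to between 10.35 and 10.63 with 1,25D (0.95, adjusted p = 0.00289).

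In the insulin-like growth factor system of 24 genes Igf1 rose from between 7.33 and 7.60 in vehicle to between 8.33 and 8.63 with 1,25D (log2 change 1.07, SE 0.13, adjusted p = 0.000385). Igfbp5, a binding protein of these factors, fell from 10.05, 10.37 and 10.41 to 8.37, 7.23, 8.15 and 7.17 (-2.55, SE 0.38, adjusted p = 0.00256); its treated arrays were wide apart but none came near vehicle. When probe sets whose names mark possible binding of several transcripts were left out, Igfbp5 was read from another probe set, with a log2 change of -0.36 (adjusted p = 0.893). In the TGF-beta and BMP list 3 of 55 rose and 1 fell, beside 1.43% and 0.951% of all genes. The fall was Tgfb2 (-0.76, adjusted p = 0.016), a call lost in 3 of the 7 fits that each left out 1 array. The rises were Ccn2, connective tissue growth factor, from between 10.61 and 10.80 in vehicle to between 12.20 and 12.34 with 1,25D (1.59, SE 0.08, adjusted p = 5.68e-08), the co-receptor Tgfbr3 (1.40, adjusted p = 0.000384) and Bmp4 (0.90, adjusted p = 0.00255). Nrp1 and Nrp2, co-receptors for VEGF and semaphorins, rose by 0.95 and 1.03 (adjusted p = 0.000307 and 9.36e-05). Wif1, a secreted Wnt antagonist, rose from between 3.97 and 4.35 in vehicle to 6.58, 6.11, 6.19 and 5.34 (1.96, SE 0.21, adjusted p = 0.000152), and in vehicle it lay near the lowest values of the arrays.

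In the list of EGF family and immediate early genes 5 of 43 rose and 2 fell, Egr1 and Atf3. Of the 7 calls 2 held whichever array was left out, those of Ereg and Fos. Ereg, epiregulin, rose from between 9.75 and 10.03 in vehicle to between 10.38 and 10.56 with 1,25D (log2 change 0.61, SE 0.09, adjusted p = 0.00255). Fos, an AP-1 subunit, read 9.95, 10.06 and 10.09 in vehicle and 10.64, 10.72, 10.79 and 10.70 with 1,25D (0.67, SE 0.09, adjusted p = 0.00146), and had risen by 0.57 at 6 h.

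Among 45 multidrug and organic solute transporters 4 rose (Abcc4, Slc7a11, Abcc3 and Slco2a1) and Slc15a2 fell. Of 42 glutathione and antioxidant genes 3 rose and 0 fell, and of 36 glycolysis and hypoxia genes 3 fell (Fbp2, Fbp1 and Ndrg1) and 0 rose. Of 34 carnitine and fatty acid oxidation genes 1 rose and 1 fell, which says little beside 1.43% and 0.951% of all genes. The calls of Abcc3, Slc15a2, Gsto1, Fbp2 and Ndrg1 were each lost in fits that left out a vehicle 48 h array. Bbox1, the last enzyme of carnitine synthesis, read 9.10, 9.17 and 9.09 in vehicle and 6.94, 6.18, 7.09 and 5.42 with 1,25D (log2 change -2.71, SE 0.33, adjusted p = 0.000394), and its neighbour Fibin fell by 1.69 (adjusted p = 0.00105). Fabp4, a fatty acid carrier of fat cells and macrophages, rose from between 4.31 and 4.58 in vehicle to between 6.66 and 7.16 with 1,25D (2.37, SE 0.14, adjusted p = 2.75e-07). Slc7a11, the cystine importer, read 8.46, 7.93 and 8.15 against 9.37, 10.21, 9.64 and 9.57 (1.52, SE 0.18, adjusted p = 0.000342). The glutathione genes Gsta4, a transferase, and Gsr, glutathione reductase, rose by 1.17 and 1.00 (adjusted p = 8.3e-06 and 0.00047). Slc34a2, a sodium-phosphate carrier, rose by 1.16 (adjusted p = 0.00528), and S100a4, a calcium-binding protein of motile cells, fell by 0.86 (adjusted p = 0.00023). None of 49 oxidative phosphorylation genes and none of 40 ribosome biogenesis genes was called by limma, with 1 and 6 at an unadjusted p under 0.05, beside 1872 of 18193 genes in all.

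Genes of cell division had small negative log2 changes in nearly every member, few of them called. Of 61 G2/M and mitosis genes 60 had a log2 change below 0, with a median of -0.294, and 34 had an unadjusted p under 0.05, beside 1872 of 18193 genes in all. After adjustment 4 fell, the kinetochore gene Ndc80, the spindle gene Nusap1, the anaphase activator Cdc20 and cyclin A2, Ccna2. All 4 calls were lost without vehicle 48 h replicate 1 or 2, the count was 0 to 4 over the fits that left 1 array out, 2 without both arrays that stand apart and 11 with array weights. The median of the 61 genes by array, relative to the vehicle mean, was 0.12, -0.02 and -0.09 in vehicle and -0.29, -0.16, -0.40 and -0.45 with 1,25D. Thus each treated array was below each vehicle array, with replicate 4 the lowest. At 6 h the list's median was 0.031. The 53 genes of G1/S and DNA replication had a median of -0.13, and the 1 member called was Ccnd1, cyclin D1, which rose from between 12.15 and 12.50 in vehicle to between 12.77 and 12.92 with 1,25D (0.46, SE 0.08, adjusted p = 0.00876). Of 48 CDK inhibitor, p53 target and growth arrest genes 3 rose, Gadd45a, Phlda3 and Plk2, and all 3 calls were lost without vehicle 48 h replicate 1 or 2.

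Of 26 heat shock genes 3 fell and 0 rose, with a median of -0.172. Hspb1 read 12.07, 12.32 and 12.42 in vehicle and 11.24, 11.11, 11.41 and 11.07 with 1,25D (log2 change -1.06, SE 0.12, adjusted p = 0.000293), and Cryab, alpha B-crystallin, 11.29 to 11.43 against 10.44 to 10.72 (-0.79, SE 0.10, adjusted p = 0.000431). The other fall was Hspb8 (-0.77), whose call was lost without vehicle 48 h replicate 2 or 3. Of 41 genes of the actin cytoskeleton 4 fell and 0 rose, and 2 of these calls held whichever array was left out. Those were Tmsb4x, thymosin beta 4, which binds actin monomers (-0.46, adjusted p = 0.00025), and Tagln2, transgelin 2 (-0.49, adjusted p = 0.00316).

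Several large changes belong to none of the lists. Adgrd1, an adhesion G protein-coupled receptor, read 4.89, 5.20 and 5.01 in vehicle and 8.13, 8.35, 7.80 and 7.79 with 1,25D (log2 change 2.99, SE 0.17, adjusted p = 2.36e-07). Tmigd1, an immunoglobulin-type membrane protein, read 4.18 to 4.51 against 7.21 to 8.01 (3.23, SE 0.19, adjusted p = 3.57e-07), and Teddm3, a membrane protein, 5.70 to 6.33 against 8.24 to 9.0 (2.83, SE 0.20, adjusted p = 2.31e-06). All 3 were dim in vehicle. On the falling side were several products known from secretory glands: Glycam1, a mucin-like milk protein (-1.99, adjusted p = 8.54e-06), Csn1s1, alpha S1 casein (-1.58, adjusted p = 0.00155), and Pip, prolactin-induced protein (-1.47, adjusted p = 9.69e-06). Glycam1 read 7.30, 7.28 and 6.87 in vehicle and 5.32, 4.77, 5.09 and 5.44 with 1,25D, and Pip 5.71 to 6.17 against 4.34 to 4.50. This grouping was made after the values were seen and was not tested. Gland products went both ways: the glandular kallikrein Klk1b1 rose (4.09), and of 26 prostate luminal and secretory genes 3 rose and 3 fell. Cited4, a cofactor of CBP/p300, fell from 8.90, 9.03 and 9.03 to 7.08, 6.95, 7.40 and 6.32 (-2.05, SE 0.26, adjusted p = 0.000562), as it had at 6 h (-1.53). The other named falls were Lipk, a lipase of epidermis (-1.80), Rsph3a, a radial spoke protein of cilia (-1.86), Mgam, maltase-glucoamylase (-1.66), Peg3, an imprinted zinc finger gene (-1.57), and Ly6f (-1.49).

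**Figure D4:**
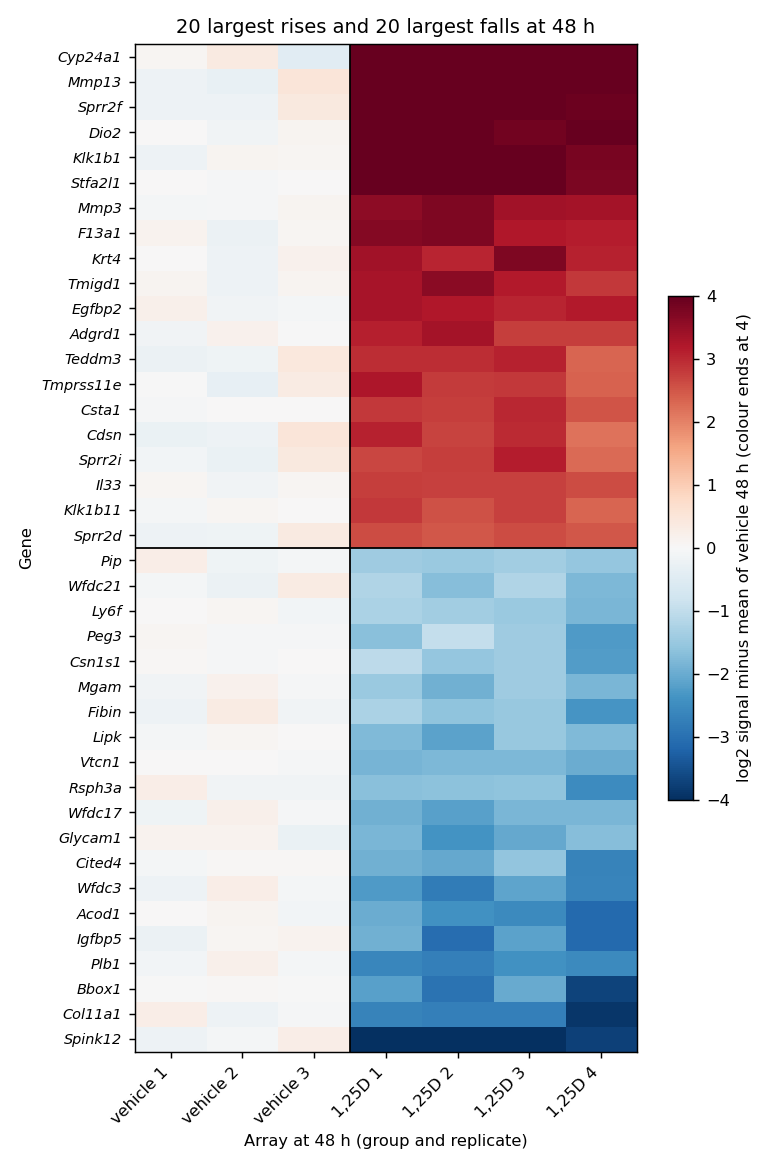
log2 signal minus the mean of the 3 vehicle arrays at 48 h (colour, from blue for lower to red for higher, ending at 4 in either direction) for the 20 largest rises and 20 largest falls (rows) on the 7 arrays at 48 h (columns). Vehicle columns are close to 0, and replicate 4 is paler than the other treated columns in Cdsn and Teddm3 and darker in Bbox1 and Col11a1.

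Most genes that changed at 48 h had not passed the test at 6 h, when 155 genes had changed (0.852%), 125 upwards (0.687%) and 30 downwards (0.165%). Of the 261 rises at 48 h, 50 had also risen at 6 h, which is 19.2% of the late rises and 40% of the 125 early ones, and 1 had fallen. Of the 173 falls, 9 had fallen at 6 h, 5.2% of the late falls and 30.0% of the 30 early ones. The median log2 change of the late rises was 0.97 at 48 h and 0.27 at 6 h, and that of the late falls -0.82 and -0.12. The 2 comparisons contrast different arrays, but both use the spread estimated from all 13 arrays, so their calls are not independent. Fitted with only the arrays compared, 68 genes were called at 6 h. The genes changed the same way at both times were then 36 in place of 59. A p that missed the threshold at 6 h does not show that a gene was unaltered then, so the difference between the 2 responses was tested by itself. It was called in 115 genes (0.632%), of which 89 had changed at 48 h: 56 late rises, 55 of them further from 0 at 48 h, and 33 late falls, 32 of them further from 0. Since 48 h calls enter both counts, this split is a description.

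The 5 largest differences between the times in each direction follow, among genes called both at 48 h and in the difference, predicted genes skipped. The 26 genes called in the difference but not at 48 h were not considered. The response at 48 h exceeded that at 6 h by 4.13 for Sprr2f (adjusted p = 0.000104), by 3.83 for Stfa2l1 (adjusted p = 6.98e-07), by 3.76 for Klk1b1 (adjusted p = 0.000159), by 3.38 for Mmp13 (adjusted p = 8.65e-05) and by 3.05 for Egfbp2 (adjusted p = 6.67e-06). On the falling side it was further down by -4.03 for Spink12 (adjusted p = 9.96e-05), -2.53 for Bbox1 (adjusted p = 0.0403), -2.35 for Col11a1 (adjusted p = 0.0256), -2.33 for Plb1 (adjusted p = 9.02e-05) and -2.28 for Wfdc3 (adjusted p = 0.000788). By contrast Cyp24a1, Il1a, Prelp, Tgfbr3, Crabp2 and Slc34a2 were up at both times with no called difference.

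Several of the falls concern genes whose vehicle signal was higher at 48 h than at 6 h. Plb1 read 7.20 to 7.53 in vehicle at 6 h, 10.04 to 10.34 in vehicle at 48 h and 7.40 to 7.74 with 1,25D at 48 h. Vtcn1 read 5.42 to 5.86, 7.90 to 7.96 and 5.96 to 6.14 in the same order, and Glycam1 4.84 to 5.06, 6.87 to 7.30 and 4.77 to 5.44. In these genes the treated cells at 48 h lay close to the 6 h vehicle level. In Spink12 and Col11a1 the treated arrays lay below it: Col11a1 read 8.54 to 9.43 in vehicle at 6 h and 6.61 to 7.84 with 1,25D at 48 h. Because the 48 h vehicle arrays enter both steps, these are levels side by side and not separate tests.

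**Figure D5:**
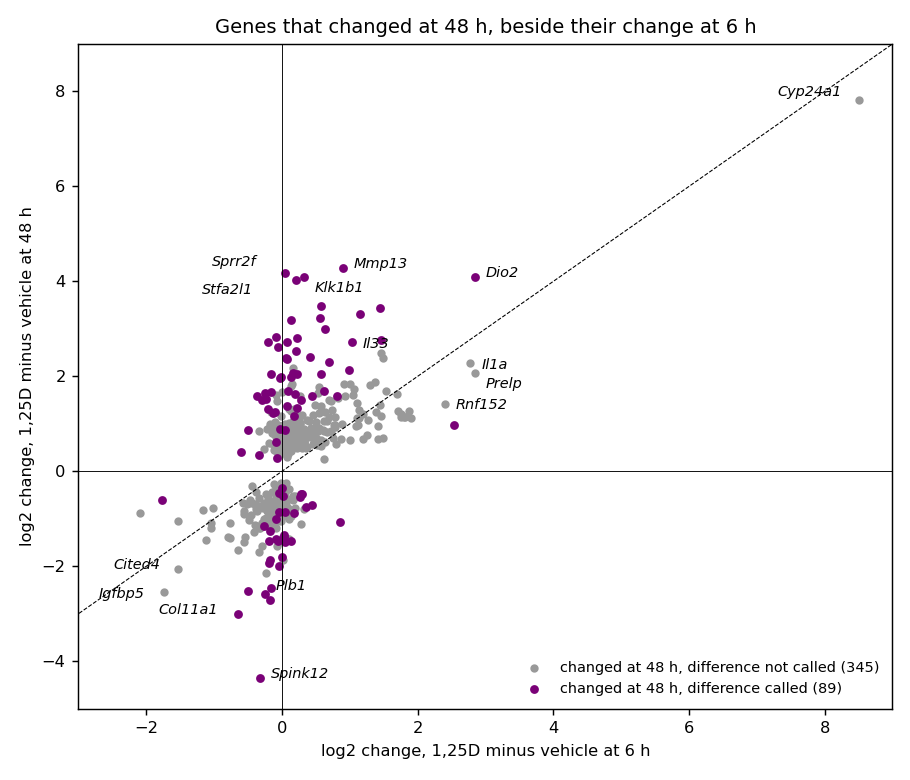
log2 change at 48 h (vertical axis) against that at 6 h (horizontal axis), both 1,25D minus vehicle, for the 434 genes that changed at 48 h; purple marks the 89 whose difference between the times was called, and the dashed line marks equal change. Cyp24a1 lies near the line at upper right, while Sprr2f, Stfa2l1 and Spink12 lie near 0 on the 6 h axis.

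Some changed genes lay next to each other. In RefSeq's order of the 18142 genes that could be placed, 76 of the 432 placed changed genes stood in 32 runs of adjacent genes changed in the same direction. Many runs hold members of 1 family, such as the Sprr genes, Klk9, Klk8 and Klk7 on chromosome 7, Krt6b and Krt6a and the falling Krt8 and Krt18 on chromosome 15, Krt16 and Krt17 on chromosome 11, S100a8 and S100a9 on chromosome 3 and Irx1 and Irx2 on chromosome 13. Further runs were Anxa1 with the paralogs Aldh1a1 and Aldh1a7 on chromosome 19, all lower, and Fos with Jdp2 on chromosome 12, both higher. Adjacent family members can share probe binding, so a run is not a count of separate events, and how many runs would arise by position alone was not tested.

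The AP-1 letters seen in the metalloproteinase and Sprr2 promoters were then counted in all promoters of measured genes, from 250 bases before to 50 after the start. TGANTCA, searched on both strands, was present in 42 of 196 late rises with a promoter in the table (21.4%), in 14 of 132 late falls (10.6%), in 7 of 98 early rises (7.14%) and in 1090 of 14452 genes overall (7.54%). Late rises that held whichever array was left out had it in 26 of 101 (25.7%). Promoters of low GC content hold these letters more often, so shares were also set side by side within 3 bands of GC content: 29 of 76 late rises (38.2%) and 11 of 51 late falls (21.6%) against 12.2% of all genes in the lowest band, 10 of 59 (16.9%) and 1 of 50 (2.0%) against 6.76% in the middle, and 3 of 61 (4.92%) and 2 of 31 (6.45%) against 3.46% in the highest. The motif was chosen with earlier results of these data known, family copies such as the Sprr2 genes count more than once, and no test was made. A direct repeat of 2 vitamin D receptor half-sites with a spacer of 3 bases, searched in its consensus form, was in 0 of the 196 late rises and 0 of 132 late falls, and in 36 of 14452 genes (0.249%). Cyp24a1 was not among the genes with a promoter, so it was not searched. For the genes searched, the count says only that these letters are not in this window. The letters TATAAA were in 19.4% of late rises, 21.2% of late falls and 11.5% of all genes.

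Single examples outside the protease and Sprr2 families are shown for comparison, 2 rises and then 2 falls, with the match in capitals:
Il1a (chr2:129309973-129310024, minus strand): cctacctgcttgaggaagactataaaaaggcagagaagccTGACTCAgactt
Tmigd1 (chr11:76891037-76891119, plus strand): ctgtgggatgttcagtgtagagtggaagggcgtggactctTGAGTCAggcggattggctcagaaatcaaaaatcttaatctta
Plb1 (chr5:32238844-32238930, plus strand): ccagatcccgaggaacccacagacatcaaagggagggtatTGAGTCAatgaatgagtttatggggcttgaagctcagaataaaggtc
Ccl9 (chr11:83578643-83578729, minus strand): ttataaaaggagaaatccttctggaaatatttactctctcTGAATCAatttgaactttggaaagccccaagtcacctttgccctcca
The first matched base lies 12 bases before the start in Il1a, 43 in Tmigd1, 200 in Plb1 and 53 in Ccl9. Tmigd1 and Plb1 each have another annotated start, whose promoter holds no match. The letters thus occur in front of genes that rose and of genes that fell.

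Of the 434 changed genes 193 had at least 1 other probe set on the array, 349 in all. The other probe set had a log2 change of the same sign, however small, in 310 of the 349. It was itself called the same way in 72 (62 genes) and the opposite way in 0. Some named genes of either direction were not called on another probe set, and examples follow. For falls, log2 changes there were -0.03, -0.03 and -0.38 for Plb1, 0.13 for Wfdc3, 0.13 for Pip, 0.1 for Rsph3a and -0.06 for Cited4. Those of Peg3 were -1.44, -1.0, 0.04 and -0.07. For rises, they were 0.18 for Ntn1, 0.35 for Cldn2, 0.41 for Tgfbr3 and 1.0 for Ptgs2. Other named falls were called there too, such as Col11a1 (-3.04), Bbox1 (-1.67) and Ccl9 (-1.53). So were other named rises, such as Cyp24a1 (5.07), Krt4 (3.37) and Prelp (1.8). None of the 97 named genes changed direction in an alternative that still read it. Most of them had been named for calls that held without any single 48 h array. Some were not read without the lowest 40% of probe sets, which left 91, or without probe sets open to several transcripts.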

How the data were processed

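Total RNA of 13 samples was hybridised to Affymetrix mouse arrays, 1 sample an array. The authors' deposited table holds log2 values per probe set, already normalized; the submitters' processing notes name MAS5, and its role and the scaling are not given in the sources used here. Depth has no meaning for arrays, and the number of arrays limits the precision. Values range from 3.05 to 14.45 and array medians from 5.569 to 5.665, so they were used as given. Of 45101 probe sets, 64 controls were left out. Gene symbols came from the platform annotation: 34945 probe sets had 1 symbol, 932 several and 9160 none.

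limma 3.58.1 in R 4.3.3 fitted 4 group means to all 13 arrays, with an intensity trend in the variance and Benjamini-Hochberg adjustment over 45037 probe sets; calls have an adjusted p under 0.05. Fits were tested on simulated data. Summaries used Python 3.11.15. The members and lists were chosen with earlier results of these data known. Named genes are the 20 largest rises and falls that held in every fit leaving out 1 of the 7 arrays, up to 4 such members per list by smallest p, the 5 largest differences between the times in each direction, and Cyp24a1, Vdr and Il1a. Other genes were named after their values were seen, to complete a count, a run of neighbours or a family. Alternatives covered log offset, normalization, variance model, low signals, array weights, replicate block, left-out arrays, probe set choice and call rule. Promoters are RefSeq's, on GRCm38.p6, from 250 bases before to 50 after a start.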

Additional observations from a re-analysis of the deposited data

Results flagged for a closer look

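In 9 of 97 named genes 1 of the 4 arrays with 1,25D at 48 h stood away from the other 3 by more than Dixon's 95% limit; chance alone passes that limit in about 1 in 20 groups of samples. Bmp4 read 10.64 on 1,25D 48 h replicate 2 and 10.89 to 10.92 on the other 3 treated arrays. Col11a1 read 6.61 on 1,25D 48 h replicate 4 and 7.78 to 7.84 on the other 3 treated arrays. Cyp3a13 read 5.75 on 1,25D 48 h replicate 4 and 6.48 to 6.60 on the other 3 treated arrays. Dsg1b read 4.53 on 1,25D 48 h replicate 4 and 5.74 to 5.88 on the other 3 treated arrays. Nrp2 read 9.66 on 1,25D 48 h replicate 2 and 9.82 to 9.85 on the other 3 treated arrays. Ptgs2 read 12.14 on 1,25D 48 h replicate 2 and 11.43 to 11.53 on the other 3 treated arrays. Rsph3a read 5.83 on 1,25D 48 h replicate 4 and 6.68 to 6.73 on the other 3 treated arrays. Serpinb2 read 7.01 on 1,25D 48 h replicate 4 and 7.49 to 7.51 on the other 3 treated arrays. Tmsb4x read 13.02 on 1,25D 48 h replicate 2 and 13.22 on each of the other 3 treated arrays. Replicate 4 was the outlying array in 5 of these genes and replicate 2 in the other 4, and the naming rule itself requires a call without any single array.

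The responses at 48 h and 6 h differed by the contrast of both in limma, with Benjamini-Hochberg adjustment, in 51 named genes. Values are the log2 change at 48 h minus that at 6 h. The difference was above 0 for Sprr2f (4.13), Stfa2l1 (3.83), Klk1b1 (3.76), Mmp13 (3.38), Egfbp2 (3.05), Sprr2i (2.93), Mmp3 (2.92), Teddm3 (2.91), Klk1b11 (2.67), Tmigd1 (2.67), Cdsn (2.65), Tmprss11e (2.58), Adgrd1 (2.35), Sprr2d (2.33), Fabp4 (2.31), Serpinb2 (2.21), Krt4 (2.16), F13a1 (2.00), Wif1 (1.99), Gjb2 (1.83), Abcc4 (1.81), Krt16 (1.80), Slc7a11 (1.75), Il33 (1.68), Stfa3 (1.62), Krt6b (1.42), Csta1 (1.31), Dio2 (1.24), Mmp10 (1.22), Jam2 (1.14), Gsta4 (0.99), S100a8 (0.83), Ccn2 (0.78) and Ereg (0.69). It was below 0 for Spink12 (-4.03), Bbox1 (-2.53), Col11a1 (-2.35), Plb1 (-2.33), Wfdc3 (-2.28), Acod1 (-2.01), Glycam1 (-1.95), Lipk (-1.79), Wfdc17 (-1.76), Vtcn1 (-1.69), Ly6f (-1.55), Ccl9 (-1.42), Pip (-1.41), Fbp1 (-0.92), S100a4 (-0.82), Tmsb4x (-0.42) and Krt18 (-0.34).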

How the results depend on the processing

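Of 89 alternative counts other than those that leave out 1 array, 70 lay within 1.5 times the reported count. With array weights 1043 genes changed at 48 h (588 rises, 455 falls), 262 in the difference between the times and 115 the same way at both times. At an adjusted p under 0.01 the counts were 243 (154 and 89) and 55 in the difference. With a change of at least 2-fold required as well they were 184 (121 and 63), with 93 at 6 h and 33 at both times. Fitting only the arrays compared gave 68 genes at 6 h and 36 at both times. Without the 2 arrays that stand apart, a choice made after seeing the data, there were 396 rises at 48 h, 199 genes in the difference and 248 at 6 h. The cause of these shifts was not tested, other than that a stricter rule calls fewer genes. Leaving out each array in turn gave 260 to 500 genes at 48 h (161 to 293 rises, 92 to 207 falls), 66 to 130 in the difference, 104 to 185 at 6 h and 43 to 69 at both times; the difference count was 66 without 1,25D 6 h replicate 1 and 75 without vehicle 48 h replicate 2. Same-numbered arrays at 48 h had deviations that correlated at -0.00941, -0.534 and 0.386, and arrays with different numbers gave -0.418 to 0.651. With so few arrays, these correlations cannot decide if the numbers pair the samples. With the replicate block 373 genes changed, 103 in the difference. Of 2610 alternative values of the 97 named genes 2588 kept their direction and side of the threshold and 0 changed direction. The exceptions were Igfbp5 without probe sets open to several transcripts, Slpi without the intensity trend, Csf3 at an adjusted p under 0.01, and the genes under 2-fold where that change was required. Most of the 97 genes were named for calls that held without any single 48 h array. Their sameness in those fits was therefore fixed by that choice. Of all 434 calls at 48 h, 218 held in those fits.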
